A study of Arabidopsis thaliana with 12 samples.

Results

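The 55 genes described here are the brightest on an array of 3439 probes among those whose intensity stayed within a fixed band between an *Arabidopsis thaliana* mutant, psad1, and the wild type (WT). They come from the 692 probes annotated with exactly 1 gene. For 599 of those the mean log2 difference, psad1 minus WT, lay above −0.25 and below 0.30, and the 60 with the highest mean WT intensity were taken. LHB1B2, PSAN and the photosystem II genes PSBW, PSB27 and PSBY were then left out, and no gene of the NDH complex or of plastid ribosomes was recognised among the 60. Both the brightness and the small difference of the 55 genes were therefore chosen from these measurements and are given as a description; where counts from fits of the whole array are given for this difference, nothing is read from them.

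Total RNA was profiled in 6 WT samples and 6 psad1 samples, all of ecotype Columbia 0. In psad1 the protein PSI-D1 is missing, which is a version of subunit D of photosystem I, and the comparison asks what happens to transcripts without it. The labels give no tissue, plant age, growth condition or number of plants behind a sample, and no second mutant line. No probe listed PSAD1 or PSAD2, so the genotype labels were taken as given. Of the 3439 probes, however, 1877 had no gene listed and 870 listed several genes.

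PSI-D sits on the stromal face of photosystem I, where it helps ferredoxin to dock and take up electrons. Most proteins of the chloroplast are encoded in the nucleus and imported, so a lesion in a photosystem can be followed by changes in nuclear transcripts. Transcripts that hold their level between genotypes are the ones against which such changes are read, and in plant work a few of them serve as reference genes. A steady transcript need not be one that every cell requires: the term here describes the measured level only.

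The samples had like means of intensity (1.05 to 1.07), and dim values were raised to a floor of 0.152 to 0.184. Their medians were less alike, from 0.554 in psad1 sample 1 to 0.623 in psad1 sample 6. No member was at or below the floor in any sample. Each genotype held 3 couples of like samples, numbered 1 with 2, 3 with 4 and 5 with 6, whose deviations from the genotype mean had correlations of 0.469 to 0.649 across all tested probes. The labels do not name these couples; they were found from those correlations. The couples are called sets 1, 2 and 3, the samples of a set partners, and means ± SD below refer to 3 set averages per genotype. SEs also come from these averages, without pairing of same-numbered samples across genotypes. Deviations of same-numbered samples had correlations of 0.00805 to 0.483 across all tested probes. In RNA from bulk samples, fewer cells of a type and less RNA per cell cannot be told apart. Of 120 genes on 9 lists of reference genes, plastid machinery and markers of other tissues and states, 1 had a tested probe of its own, the reference gene AT2G28390 of the SAND family, and none was a member. It measured 0.829 in WT and 0.809 in psad1, with a log2 difference of −0.04 (SE 0.09), and was too dim to be among the 55. No marker of non-green tissue, seeds, senescence or pathogen response had a tested probe of its own, so the tissue could not be checked.

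A few genes held a large share of the signal of the 55. The brightest, AT3G09850, which encodes a G-patch protein of the kind that binds nucleic acids, carried 21% of the members' summed WT intensity, and it carried 36.4% together with AT2G27290. Only these 2 genes exceeded an intensity of 10 in WT, 15 reached 2, and the other 40 lay between 1.19 and 2. All 55 probes together held 4.67% of the array's summed mean intensity in WT and 4.77% in psad1. Intensities of different probes depend on the probe as well as on the transcript, so the order of the genes by brightness is not an order of transcript amounts.

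The intensity of AT3G09850 was 36, 38.6, 35.2, 35.7, 33.4 and 34.8 in WT samples 1 to 6, and 42, 51.3, 40.5, 41.4, 28.3 and 30.8 in psad1 samples 1 to 6. The WT samples were close together, whereas psad1 samples 1 to 4 lay above every WT sample and psad1 samples 5 and 6 below every one. Its genotype means of 35.6 ± 1.61 (SD, n = 3) and 39 ± 8.7 differed by 0.10 on the log2 scale (SE 0.20), a small mean difference made up of departures in opposite directions. AT2G27290 measured 23.5, 23.5, 31.7, 32.5, 22.4 and 22.7 in WT, and 21.4, 20.9, 30.3, 31.5, 21.4 and 21.9 in psad1. Samples 3 and 4 stood above the rest in both genotypes, and the groups overlapped. Set averages of AT2G27290 were 23.5, 32.1 and 22.6 in WT. In psad1 they were 21.2, 30.9 and 21.6, each below the WT set of the same number. The log2 difference of AT2G27290 was −0.09 (SE 0.24). That SE does not pair sets by number, so it takes in the rise of samples 3 and 4 common to both genotypes.

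AT1G62250 ranged from 7.43 to 10.6 in WT (median 9.16) and from 9.87 to 13.1 in psad1 (median 10.4). CUTA, a copper-binding protein of the chloroplast, ranged from 5.79 to 6.77 in WT (median 6.3) and from 6.75 to 8.82 in psad1 (median 7.68). The CUTA ranges met at their ends, the highest WT sample lying just above the lowest psad1 sample, and its log2 difference of 0.29 (SE 0.09) was the highest of the 55. AT4G35660 ranged from 5.15 to 6.91 in WT and from 4.95 to 6.35 in psad1, with the groups intermixed.

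CYN encodes cyanase, the enzyme that breaks down cyanate to ammonia and carbon dioxide. It measured 2.86, 2.94, 3.14, 3.15, 3.13 and 3.32 in WT and 3.38, 3.54, 3.56, 3.92, 3.53 and 3.63 in psad1. All psad1 samples of CYN lay above all WT samples, with a log2 difference of 0.22 (SE 0.06). AT2G33180 had a range of 3.76 to 4.11 in WT and 3.08 to 4.13 in psad1, where set 2 reached the WT level and sets 1 and 3 lay below it. AT4G19900 ranged from 3.5 to 3.94 in WT and from 3.86 to 4.75 in psad1. AT4G27390 ranged from 2.25 to 2.71 in WT and from 2.66 to 3.26 in psad1, with psad1 set 1 the highest of its sets.

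**Figure D1:**
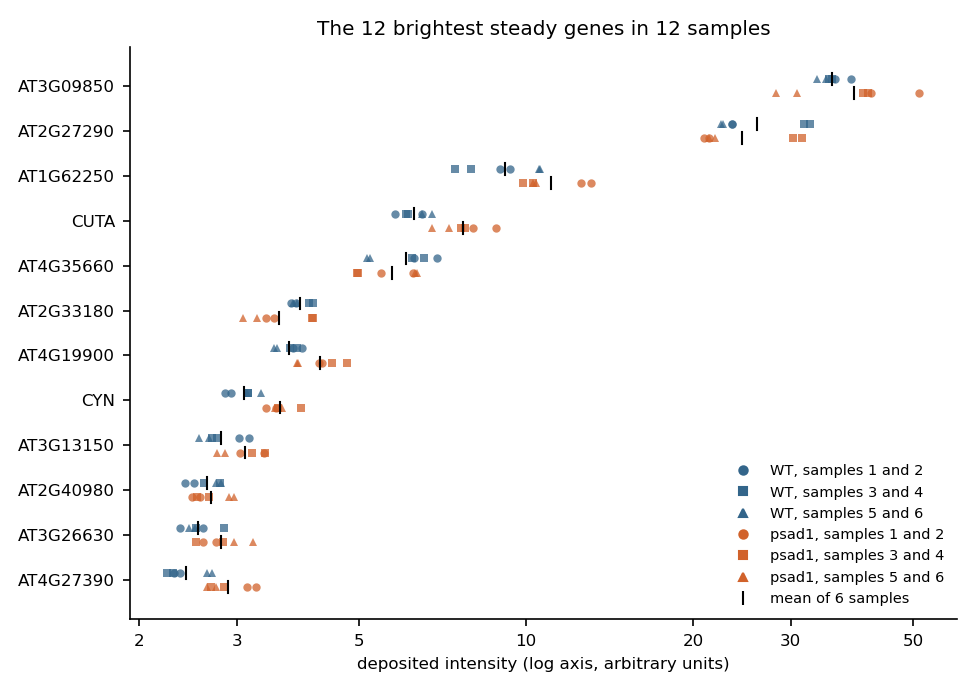
Deposited intensity (log axis, arbitrary units) of the 12 brightest of the 55 genes in each of 6 WT and 6 psad1 samples; marker shape gives the set and the bar the mean of 6 samples. The psad1 samples of AT3G09850 spread from 28.3 to 51.3 around tightly grouped WT samples, and only for CYN do the genotypes not overlap.

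Genes that were assigned a known role are described next by group, some of them already named above. Pentatricopeptide repeat proteins bind organelle RNA and take part in its splicing, editing and stability. The 5 members assigned to this kind had log2 differences between −0.17 and 0.14 and a median of −0.06, with 2 higher and 3 lower in psad1. AT3G13150 ranged from 2.57 to 3.16 in WT and from 2.76 to 3.37 in psad1. AT3G26630 ranged from 2.37 to 2.85 in WT and from 2.53 to 3.22 in psad1. In AT2G19280 the range was 2.03 to 2.46 in WT and 1.92 to 2.28 in psad1. All 3 overlapped between the genotypes, as did AT4G14050 and AT5G39980, which were dimmer (1.56 and 1.29 in WT).

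The 5 genes assigned as other factors of RNA and nucleic acids, AT3G09850 included, had a median log2 difference of 0.10. Of these, 4 were higher and 1 lower in psad1, a split that depends on the assignment. The lower one, AT3G18870 of the mTERF family, whose proteins act in organelle gene expression, ranged from 1.34 to 1.51 in WT and from 1.14 to 1.32 in psad1, without overlap (log2 difference −0.19, SE 0.07). AT2G37510, an RNA-binding protein, ranged from 1.53 to 1.98 in WT and from 1.8 to 2.36 in psad1. The rRNA or tRNA methyltransferase gene AT2G19870 and the pseudouridine synthase gene AT2G30320 had log2 differences of 0.21 (SE 0.13) and 0.06 (SE 0.07).

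Enzymes of metabolism formed the largest group assigned, 9 genes, of which 4 were higher and 5 lower in psad1, with a median log2 difference of −0.03. AT1G74470, the geranylgeranyl reductase that makes the phytol tail of chlorophyll, ranged from 1.9 to 2.58 in WT and from 1.78 to 2.11 in psad1. AT5G58330, the NADP-dependent malate dehydrogenase that exports reducing power from the chloroplast, ranged from 1.42 to 1.64 in WT and from 1.35 to 1.57 in psad1. ATSPS4F, a sucrose phosphate synthase, ranged from 1.36 to 1.69 in WT and from 1.41 to 1.51 in psad1. These 3 genes overlapped between the genotypes.

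The ribokinase gene AT1G17160 had means of 1.8 ± 0.148 in WT and 1.77 ± 0.321 in psad1. In psad1 its set 3 (2.1 and 2.18) stood above sets 1 and 2 (1.51 to 1.62). AT2G22890, related to fatty acid desaturase 4 of the chloroplast, measured 1.76 ± 0.3 in WT and 2.02 ± 0.312 in psad1. Its set 3 was the lowest in WT (1.52 and 1.35) and the highest in psad1 (2.19 and 2.31). AT4G29890, related to choline monooxygenase, showed the same order, with set 3 lowest in WT (1.48 and 1.5) and highest in psad1 (1.98 and 2). AT5G63290, a radical SAM protein related to an oxidase of tetrapyrrole synthesis, measured 1.24 ± 0.108 in WT and 1.05 ± 0.131 in psad1.

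The 3 protein kinase genes AT2G40980, AT3G57120 and ATSIK had log2 differences of 0.02 (SE 0.08), 0.10 (SE 0.10) and −0.14 (SE 0.10). All 3 transcription factor genes had lower means in psad1: the log2 difference was −0.02 (SE 0.07) in AT4G00870 of the bHLH family, −0.17 (SE 0.07) in AT1G44830 of the ERF family and −0.18 (SE 0.09) in the MADS-box gene AT5G40070. FZL, a dynamin-like GTPase that shapes thylakoid membranes, measured 1.37 ± 0.0831 in WT and 1.32 ± 0.144 in psad1. AT1G74070, a cyclophilin, measured 1.25 ± 0.052 and 1.21 ± 0.204. Together with CUTA these make 28 genes grouped by role. The other 27 were given no role here, so further genes of these kinds may be among them. The roles were assigned with the values known, and no group is set against another.

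The differences of the 55 genes reached close to both limits of the band. Their quartiles were −0.13 and 0.09, against −0.13 and 0.13 over all tested probes. Their median was −0.05, against −0.02 over all 3202 tested probes, with 22 genes higher and 33 lower in psad1. The absolute difference was under 0.05 in 12 genes, under 0.1 in 25 and under 0.2 in 44. The band itself is wide for this array, since 83.2% of all tested probes lay inside it. The median SE of a member's difference was 0.10. In 12 of the 55 the difference was more than 2 SE from 0 (background 23.4%), a count that the rule bears on and from which nothing is read.

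Limma on 12 samples called 6 of the 55 at an adjusted p under 0.05, against 15.8% of all tested probes. The 3 higher in psad1 (background 7.71%) were CUTA, CYN and AT4G27390. The 3 lower in psad1 (background 8.06%) were AT3G06870, AT2G30100 and AT3G18870. On set averages none was called (background 0.874%), although 476 probes of the array had an unadjusted p under 0.05. All 12 samples were separated by genotype in 3 members (background 9.03%): CYN, higher in psad1 (background 4.18%), and AT3G06870 and AT3G18870, lower (background 4.84%). AT3G06870 ranged from 1.52 to 1.85 in WT and from 1.39 to 1.47 in psad1. Set averages were separated in 9 members (background 20.8%). Since the rule fixed these differences, nothing is read from the counts.

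At the lower limit, AT2G30100 and AT5G63290 (both −0.25) and AT3G06870 (−0.22) lay just inside. AT4G39760 (−0.26), AT4G31530 (−0.27) and chr31 (−0.27) lay just outside. At the upper limit CUTA (0.29), AT1G62250 (0.28) and PSAN (0.27, left out by name) were inside, and LpxA (0.32), NdhS (0.32) and XERICO (0.34) outside. By brightness the last gene taken was AT5G06790 (WT mean 1.19) and the first not taken OTP70 (1.18). At both limits of the band the gap between inside and outside was smaller than the SE of the members beside it, which for AT5G63290 was 0.13 and for AT1G62250 0.17.

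**Figure D2:**
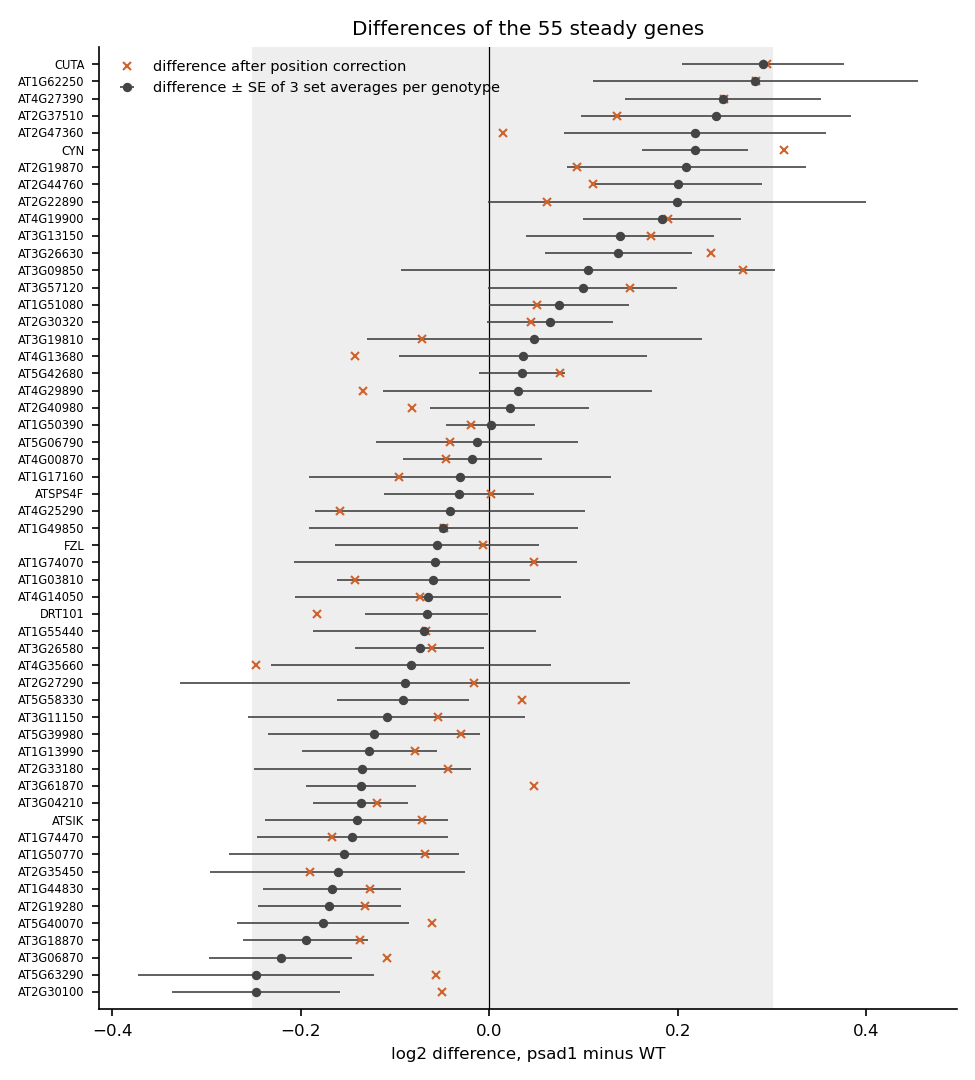
Log2 difference, psad1 minus WT, of each of the 55 genes (points) with the SE from 3 set averages per genotype (lines); crosses give the difference after position correction and the grey area is the band of the rule. The points run from −0.25 to 0.29 without a gap at 0, and the cross of CYN lies outside the band.

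The spread between samples of one genotype was not part of the rule. The median SD of log2 intensity within a genotype was 0.118 over the 55 genes (0.07 to 0.262), against 0.148 over all tested probes and 0.142 over the 435 other probes at least as bright as the dimmest member. A probe with a wide spread falls outside the band more easily, so the choice of genes favours a narrow one. Another 23 single-gene probes at least as bright had a difference outside the band, and their median SD was 0.141.

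All 12 samples lay within 1.25-fold of each other for 8 members (background 9.09%) and within 1.5-fold for 43 (background 57%). These folds span both genotypes, whose difference the rule bounded, so nothing is read from the counts. The 8 were AT1G50390, AT5G42680, AT5G58330, AT4G00870, AT2G40980, DRT101, AT2G30320 and ATSPS4F. AT1G50390, of the pfkB carbohydrate kinase family, was the most uniform, with a highest sample 1.17-fold above the lowest. It measured 1.42, 1.31, 1.31, 1.36, 1.4 and 1.39 in WT and 1.3, 1.27, 1.45, 1.38, 1.31 and 1.49 in psad1. Of the psad1 samples of AT1G50390, some lay below, some within and some above the WT range, and the means were 1.36 ± 0.0316 and 1.37 ± 0.0701. AT5G42680 measured 1.82, 1.75, 1.81, 1.94, 1.8 and 1.81 in WT and 1.83, 2.03, 1.95, 1.86, 1.71 and 1.82 in psad1, again intermixed. Its samples spanned 1.19-fold.

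A narrow spread did not always go with a difference near 0. The 5 narrowest members were AT5G42680, AT3G04210, AT1G50390, CYN and AT3G61870, with SDs of 0.07 to 0.077. Among them AT3G04210, of the TIR-NBS family of resistance proteins, ranged from 1.75 to 2 in WT and from 1.58 to 1.79 in psad1 (log2 difference −0.14, SE 0.05). AT3G61870 ranged from 1.28 to 1.38 in WT and from 1.09 to 1.31 in psad1 (log2 difference −0.14, SE 0.06). In both genes most psad1 samples were below the WT samples.

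The 5 widest members were AT2G27290 (SD 0.262), AT3G09850 (0.23), AT2G22890 (0.225), AT1G50770 (0.208) and AT3G19810 (0.198). For 12 members the highest of 12 samples was over 1.5-fold above the lowest, up to 1.81-fold in AT3G09850 and 1.76-fold in AT1G62250. AT3G19810 measured 1.55, 1.64, 1.48, 1.59, 1.37 and 1.38 in WT and 1.29, 1.37, 1.45, 1.43, 1.9 and 1.98 in psad1, where set 3 stood above all other samples. AT1G50770 differed from the others in that partners disagreed: WT samples 5 and 6 read 1.3 and 0.871, and psad1 samples 5 and 6 read 0.824 and 1.07.

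**Figure D3:**
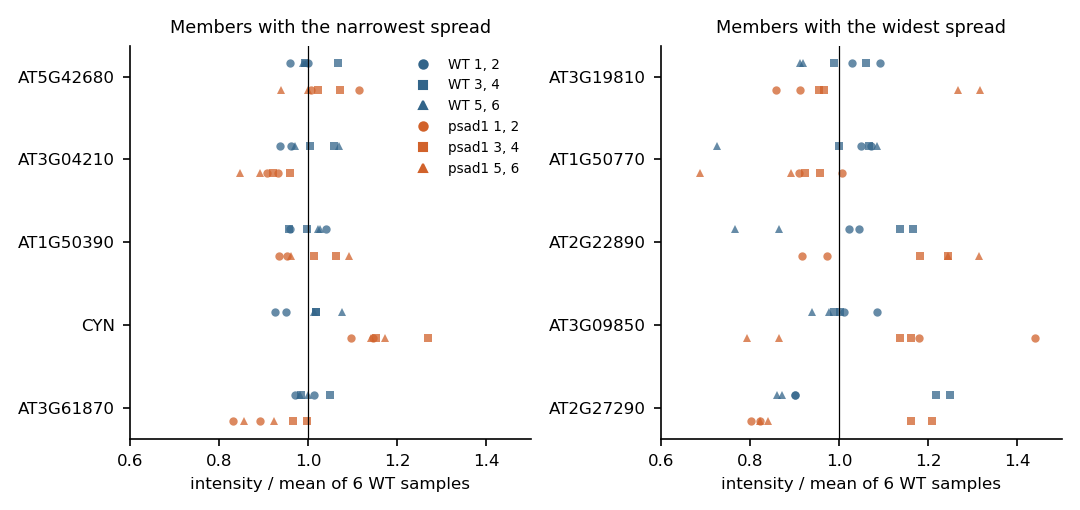
Intensity of each sample divided by the mean of 6 WT samples, for the 5 members with the narrowest and the 5 with the widest spread within genotypes; marker shape gives the set. In AT2G27290 and AT3G19810 partners lie close together and a set stands apart, whereas in AT1G50770 single samples of set 3 lie low.

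The sets were found from likeness between samples over the whole array, so that choice favours partners that lie close, and the values that follow only describe the members. The median SD of set averages was 0.124 on the log2 scale and the median SD between partners 0.0566, a ratio of 2.19, against 1.81 over all tested probes and 2.19 over the equally bright other probes. The SD of set averages was above that of partners in 49 of the 55 genes (background 82.4%). The exceptions were AT5G42680, AT3G26580, AT1G50390, AT5G39980, AT1G50770 and AT5G06790. The median deviation of the members from the genotype mean lay between −0.04 and 0.04 in all 6 sets. In psad1, set 1 was the lowest set for 25 of the 55 genes, where it was the lowest for 57.7% of all tested probes. Over all tested probes the median deviation of psad1 set 1 was −0.09.

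Whether the spread differed between genotypes was tested with limma on the absolute deviations of samples from their genotype mean. The SD was wider in psad1 for 30 members (background 61.5%) and in WT for 25, with medians of 0.126 in psad1 and 0.111 in WT. No member passed an adjusted p of 0.05, nor did any other probe (background 0%), on 12 samples or on set averages (background 0%). At an unadjusted p under 0.05, limma on 12 samples marked 7 members (background 15.7%), all wider in psad1 (background 12.1%) and none narrower (background 3.59%). On set averages limma marked 3 members at an unadjusted p under 0.05 (background 9.74%). The shares of members were close to or below those of the array.

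AT3G09850 had the lowest p for spread among the members, 0.00396 unadjusted and 0.146 adjusted in limma, with an SD of 0.317 in psad1 and 0.069 in WT. AT3G19810 followed with 0.0111 unadjusted and 0.185 adjusted, and AT1G74070 with 0.014 and 0.192. The cyclophilin gene AT1G74070 read 0.943 and 1.03 in psad1 set 1, below all WT samples (1.19 to 1.36), and 1.22 to 1.42 in sets 2 and 3. The other 4 were AT3G11150, AT2G33180, AT1G17160 and AT1G49850. The adjusted p of AT3G09850 in limma was 0.0226 without psad1 sample 2 (background 1.37%) and 0.0363 without sample 4 (background 3.84%), and that of AT3G19810 0.0455 without sample 4. With psad1 sample 3 left out, limma's adjusted p for spread was 0.0333 for AT3G09850, 0.042 for AT3G19810 and 0.0374 for AT1G74070 (background 3.53%). Without psad1 sample 1, no member was called for spread (background 1.41%). The same held without psad1 sample 5 or 6 or any WT sample (background at most 0.25%). Partners are not independent samples, so these p-values are too small. On set averages the adjusted p of AT3G09850 for spread in limma was 0.467.

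**Figure D4:**
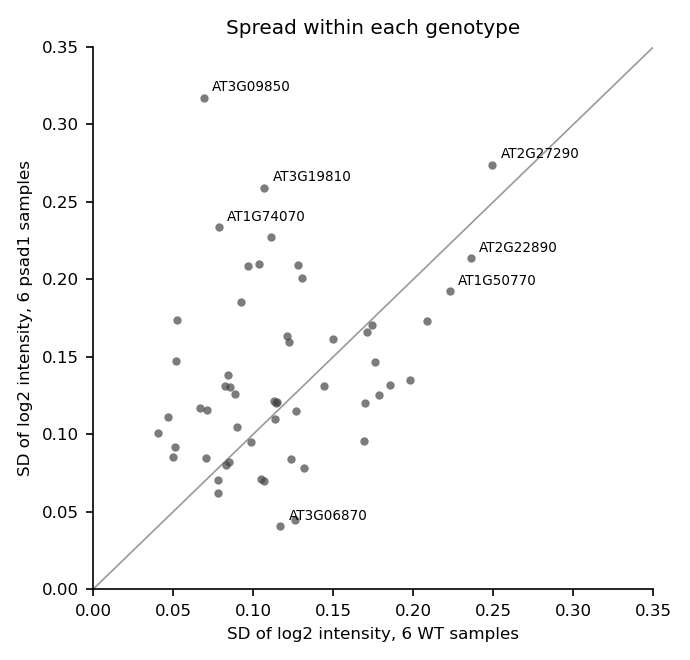
SD of log2 intensity over 6 psad1 samples against that over 6 WT samples, 1 point for each of the 55 genes; the line marks equal spread. AT3G09850 stands apart with 0.317 in psad1 and 0.069 in WT, and 30 points lie above the line.

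Some of the members stood near each other on the array or were measured on a further probe. The numbers of 16 of the 55 probes lay within 12 of another member's, and AT3G57120 and AT3G18870 had adjacent numbers, with log2 differences of 0.10 and −0.19. Subtracting a running median over 25 neighbouring probe numbers, on the assumption that the numbers follow the layout, moved the difference by over 0.1 in 19 members and turned its sign in 9. The difference of AT2G30100 became −0.05 and that of AT5G63290 −0.06, both from −0.25. That of AT2G47360 became 0.01, from 0.22, and that of the brightest gene, AT3G09850, became 0.27, from 0.10. AT4G35660 went from −0.08 to −0.25, and CYN from 0.22 to 0.31, outside the band. AT3G61870 went from −0.14 to 0.05. The part of layout in any single difference was not tested.

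No member had a further probe of its own, and 5 were listed on a probe shared with other genes. Of these, 4 had such a probe among those tested. The shared probe of AT3G26630 had a log2 difference of −0.18, against 0.14 on its own probe. Those of AT1G03810, AT5G06790 and AT5G42680 had −0.26, −0.10 and 0.01, against −0.06, −0.01 and 0.03. A shared probe also measures the other genes it lists.

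By their locus names the members were spread over the genome, with 13 genes each on chromosomes 1, 2 and 3, 9 on chromosome 4 and 7 on chromosome 5. Among all single-gene probes, chromosome 5 held 20.7%, against 12.7% of the members. Chromosomes 2 and 3 held 17.9% and 18.8% of those probes, against 23.6% of the members each. For chromosomes 1 and 4 the shares were 25.1% and 17.3%, against 23.6% and 16.4% of the members. The nearest neighbours were AT3G26580 with AT3G26630 and AT5G39980 with AT5G40070, each with 9 genes between them.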

How the data were processed

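The values were intensities deposited by the authors, 1 table of 3439 probes by 12 samples. They are linear, never negative and were used as deposited. The sources used here do not give the scanner, the background correction or the scaling. Values under each sample's 5th percentile of positive values were raised to it and log2 was taken. The 3202 probes above that floor in any sample entered linear models in limma 3.58.1 under R 4.3.3 (2-sided, Benjamini-Hochberg over all tested probes), for genotype means and for absolute deviations. Both fits were run on simulated data, but the outcomes are not given here and nothing is read from them. For spread the simulated samples were independent, so that run does not cover likeness between partners. Genes come from the platform annotation, with symbols from the TAIR10.1 gene table (690 of 692 single-gene probes matched). The table's coordinates were used only to find neighbouring members and count the genes between them.

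The members, gene lists, roles and tests were chosen with earlier results of these data known. Genes named are the 12 brightest, the 5 narrowest and 5 widest, those at a limit, without overlap or listed on a list or a second probe, and, beyond that rule, members called or marked in a test or given as examples of a role. A planned grouping by keywords is not used, since the gene table holds no descriptions. The labels do not name separate plants for the samples. All p-values therefore rest on differences between samples that may be technical. Alternatives were other floors, an offset, quantile normalization, median centring, position correction, a filter on dim probes, set averages, sets as a random block, a trend and robust fit, the sample number as a block, leaving out each sample, and other rankings and bands. Figures were drawn with matplotlib 3.10.9.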

Additional observations from a re-analysis of the deposited data

Results flagged for a closer look

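Among 110 sets of 6 values (55 genes in 2 genotypes), 5 had a sample far from the others on the log2 scale, where chance marks about 1 in 20 if samples are independent, which these were not. AT1G50770 was marked in both genotypes: WT sample 6 read 0.871 with the nearest WT sample at 1.2, and psad1 sample 5 read 0.824 with the nearest at 1.07. AT2G19280 read 2.28 in psad1 sample 4, above 2.02 in the next sample. AT4G00870 read 1.77 in WT sample 6, below 1.89 to 1.92 in the others. FZL read 1.16 in WT sample 5, below 1.36 to 1.46.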

How the results depend on the processing

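The rule still picked 51 to 55 of the 55 members when a sample was left out, 48 after position correction or by brightness in psad1, 50 to 55 under other floors, scalings and rankings, and 36 with a band of −0.15 to 0.15. The members' median log2 difference lay between −0.054 and −0.019 with a sample left out. Their median spread of 0.118 became 0.0987 after position correction and 0.114 to 0.125 with a sample left out. Against 505 probes called between genotypes (48.9% higher in psad1), 28 passed on set averages and 84 (2.62%) with sets as a random block, with 0 members in either, and 761 (23.8%) with the replicate block, 11 members among them. The main fits and the SEs did not pair samples by number across genotypes. Among 6 same-numbered pairs, 4 exceeded a correlation of 0.1, and the best match was the own number for 8 samples of 12. A sample left out gave 387 to 553 calls, and 2 to 8 members called in place of 6 (2 without psad1 sample 2, 3 without WT sample 1, 5 or 6). For spread the count of 0 became 0 to 123, with 113 and 123 without psad1 samples 3 and 4, 45 and 44 without samples 1 and 2, and at most 8 without any other sample; the cause was not tested. Of 935 recomputed differences of the 55 members, 12 moved by more than the SD within genotypes, all after position correction, and no called difference changed sign.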
